A study of Mus musculus with 8 samples.

Results

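The miR-17-92 cluster was followed in mouse serum through 7 mature miRNAs, miR-17-5p, miR-17-3p, miR-18a-5p, miR-19a-3p, miR-19b-3p, miR-20a-5p and miR-92a-3p, which were picked by name as products of the cluster from the 1881 mouse miRNAs on the array. Serum RNA of 4 irradiated mice (7 Gy) and 4 non-irradiated mice (0 Gy) was hybridised to a 1-colour Agilent mouse miRNA microarray, with 30 ng of RNA and 1 array per serum. All the mice were male C57BL/6NJcl animals aged 8 weeks at whole-body exposure to X-rays. The 7 Gy sera were taken 72 h after irradiation, and a time for the 0 Gy sera is not given in the sources used here. The labels do not say whether a serum was pooled, so that p-values measure the spread between these 8 sera only. Serum collects RNA from many cell types, so that fewer cells of a type and less RNA per cell cannot be told apart.

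The cluster is transcribed as a single primary transcript, from which Drosha and Dicer cut several hairpins and their mature miRNAs. It is activated by MYC, is strongly expressed in dividing blood progenitors and B-cell precursors, and is needed for normal B-cell development in mice. Its products repress regulators of cell survival and of the cell cycle, among them the pro-apoptotic Bim and the transcription factor E2F1. A miRNA recognises its targets mainly through its seed, bases 2 to 8 from the 5′ end, and the members fall into families by seed.

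All 7 members were matched to mature sequences of RefSeq (GRCm38.p6), shown here with the seed in capitals because the seed sets the families in which the signals are described.
mmu-miR-17-5p: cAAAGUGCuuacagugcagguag
mmu-miR-20a-5p: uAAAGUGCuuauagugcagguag
mmu-miR-18a-5p: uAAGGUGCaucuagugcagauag
mmu-miR-19a-3p: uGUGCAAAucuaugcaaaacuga
mmu-miR-19b-3p: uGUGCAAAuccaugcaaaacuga
mmu-miR-92a-3p: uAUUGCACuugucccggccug
mmu-miR-17-3p: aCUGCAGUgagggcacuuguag

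The 6 hairpins lie on the plus strand of chromosome 14 between positions 115043671 and 115044506 of GRCm38.p6, a stretch of 836 bases, in the order Mir17, Mir18, Mir19a, Mir20a, Mir19b-1 and Mir92-1. RefSeq annotates the non-coding host gene Mir17hg at chr14:115044390-115046728, so that of the hairpins only Mir92-1 lies wholly within the annotated gene. The sequences of miR-19b-3p and miR-92a-3p are also produced by the hairpins Mir19b-2 and Mir92-2 on chromosome X, and the array cannot separate the copies. miR-17-5p and miR-20a-5p share the seed AAAGUGC and 21 of 23 bases, and miR-19a-3p and miR-19b-3p share the seed GUGCAAA and 22 of 23 bases. Whether the probes separate such near-identical members was not tested. miR-17-3p comes from the other arm of the miR-17-5p hairpin and has the seed CUGCAGU. The G and C content of the members ran from 34.8% in miR-19a-3p to 57.1% in miR-92a-3p.

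The deposited signals were intensities summed by the scanner software over the probes of a miRNA, with 0.1 where the miRNA was not called detected. The software detected 379, 687, 378 and 567 miRNAs on 7 Gy replicates 1 to 4, against 603, 600, 531 and 541 on 0 Gy replicates 1 to 4. The labelling spike-ins, RNAs added before labelling, gave log10 signals of 2.31, 3.35, 1.95 and 1.97 on the 7 Gy arrays, against 3.68, 3.45, 2.73 and 3.37 on the 0 Gy arrays. The software placed them out of range on 7 Gy replicates 1, 3 and 4, so that 7 Gy replicate 2 was the 1 irradiated serum with labelling in range. All arrays shared 1 slide and 1 scan. The groups lay in different columns of the slide, whose part cannot be told apart from that of irradiation.

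Fewer members of the cluster were called detected in the irradiated sera, apart from replicate 2. The number of members detected was 2, 7, 1 and 2 on 7 Gy replicates 1 to 4, against 7, 7, 6 and 5 on 0 Gy replicates 1 to 4. Counted over members and arrays, 12 of 28 combinations were detected at 7 Gy, against 25 of 28 at 0 Gy. Without 7 Gy replicate 2, 5 of 21 combinations were detected at 7 Gy. miR-92a-3p was detected on all 4 arrays of both groups, and it is the 1 member for which this holds. miR-17-3p was detected on 2 of 4 7 Gy arrays and on 4 of 4 0 Gy arrays, and so was miR-19b-3p. miR-19a-3p and miR-20a-5p were detected on 1 of 4 7 Gy arrays and on 4 of 4 0 Gy arrays, miR-18a-5p on 1 and 3, and miR-17-5p on 1 and 2. The single 7 Gy array with all the members was replicate 2. 7 Gy replicate 4 detected more miRNAs in all, 567, than 0 Gy replicates 3 and 4, but 2 of 7 members, against 6 and 5 on those 0 Gy arrays. Over the whole array 445 miRNAs were detected on every 0 Gy array, and 311 of them were also detected on every 7 Gy array. For another 56 of the 445, replicate 2 was the single 7 Gy array with a detection, which is the pattern of miR-19a-3p and miR-20a-5p.

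**Figure D1:**
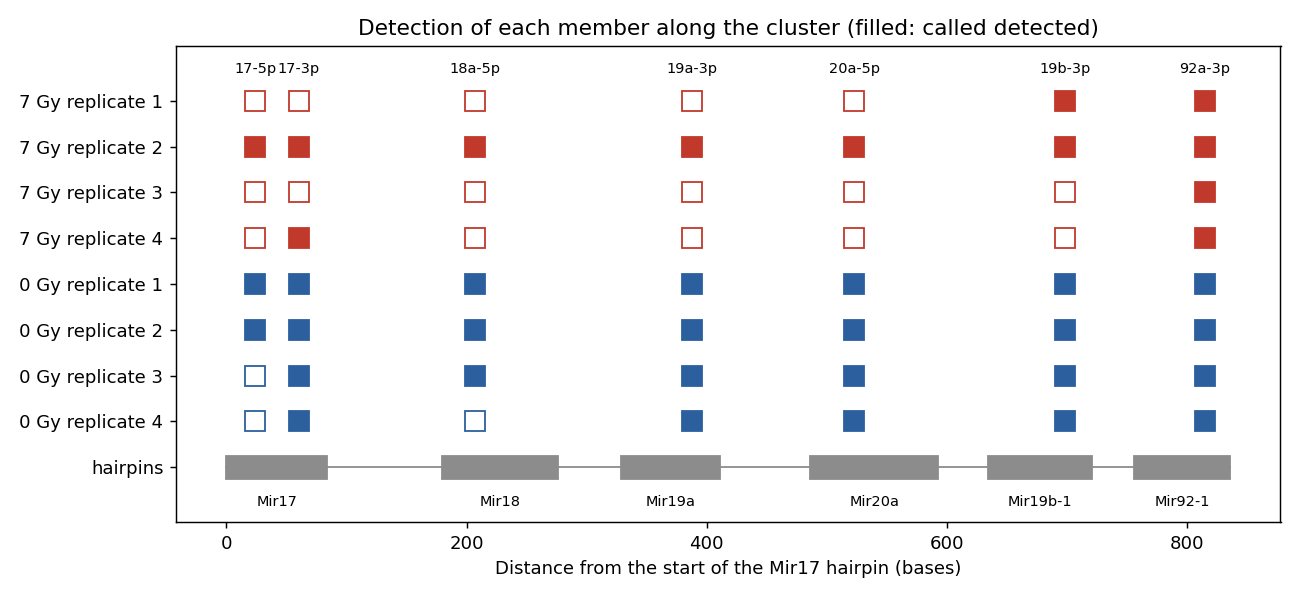
Members of the miR-17-92 cluster detected on each array, with 1 row per array and the 7 Gy replicates above the 0 Gy replicates. From left to right the members are placed by their position along the hairpins on chromosome 14. Filled cells are detected members, and the 7 Gy arrays hold 2, 7, 1 and 2 of them against 7, 7, 6 and 5 on the 0 Gy arrays.

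For the comparison of levels, the arrays were brought to the same 90th percentile, and scaled signals are given here in arbitrary units. For the test, scaled signals under 100 were set to 100, a floor taken from a lower limit that the methods name. miRNAs detected on at least 3 of the 8 arrays and above the floor on at least 1 were tested with limma, which left 208 miRNAs, among them 6 of the 7 members. miR-17-5p was not tested because it lay under the floor on all 8 arrays.

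miR-92a-3p, whose seed AUUGCAC sets it apart from the rest of the cluster and which is known to restrain vessel growth in mice, was the 1 tested member whose groups did not overlap. Its scaled signal was 240, 820, 249 and 87.2 on 7 Gy replicates 1 to 4, against 2918, 2305, 1833 and 1243 on 0 Gy replicates 1 to 4. With this scaling every irradiated serum lay below every non-irradiated one, and the lowest 7 Gy value belonged to replicate 4. Its rank came with the scaling, since the unscaled signals were 55.3, 53.7 and 115 on 7 Gy replicates 1, 3 and 4. Set against the mean of the log2 signals at 0 Gy, the 4 irradiated sera were 8.26, 2.41, 7.95 and 22.7-fold lower. With the floor applied, which replaced the 87.2 of replicate 4, miR-92a-3p averaged 352 ± 319 at 7 Gy and 2075 ± 711 at 0 Gy (SD, n = 4 each). The log2 difference was −2.90 (SE 0.62, 95% confidence interval −4.37 to −1.43), a 7.48-fold lower geometric mean of the floored signals at 7 Gy. The adjusted p of limma was 0.0510, just outside the threshold of 0.05, and the exact two-sided permutation test gave p = 0.0286, the smallest p that 4 sera against 4 allow. By unadjusted p, miR-92a-3p ranked 9th of the 208 miRNAs tested. Both of its probes gave a like difference, −2.64 for probe A_54_P2494 and −2.83 for probe A_54_P2496 on the log2 scale. All 30 of its spots were well above background on all 8 arrays.

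The call of miR-92a-3p moved across the threshold with the processing. Its log2 difference stayed below 0 under every alternative run, between −3.78 and −1.19, whereas the adjusted p of limma ran from 0.0033 with array weights to 0.776 with only the arrays whose labelling spike-ins were in range, a fit chosen after seeing the data that leaves 1 irradiated serum. Without 7 Gy replicate 2 the log2 difference was −3.45, with an adjusted p of 0.0040. With the labelling signal added to the model it was −1.66, with an adjusted p of 0.232. Within slide row 1, which holds replicates 1 and 2 of each group, the difference was −2.55 (adjusted p = 0.313), and within slide row 2 it was −3.26 (adjusted p = 0.0380, limma). On 7 Gy replicate 2 alone, 820 lay below the 0 Gy range of 1243 to 2918 with percentile scaling. Without scaling the same array gave 2166, inside the 0 Gy range of 1337 to 7484. Scaled to the labelling spike-ins it gave 681, inside the 0 Gy range of 410 to 2286. With that scaling 7 Gy replicates 3 and 4, whose labelling signals were the lowest, also came inside this range, and replicate 1 lay below it. The groups therefore overlapped with labelling scaling, at a log2 difference of −1.19 (adjusted p = 0.495, limma). The part of the labelling in the difference was not tested beyond these values.

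**Figure D2:**
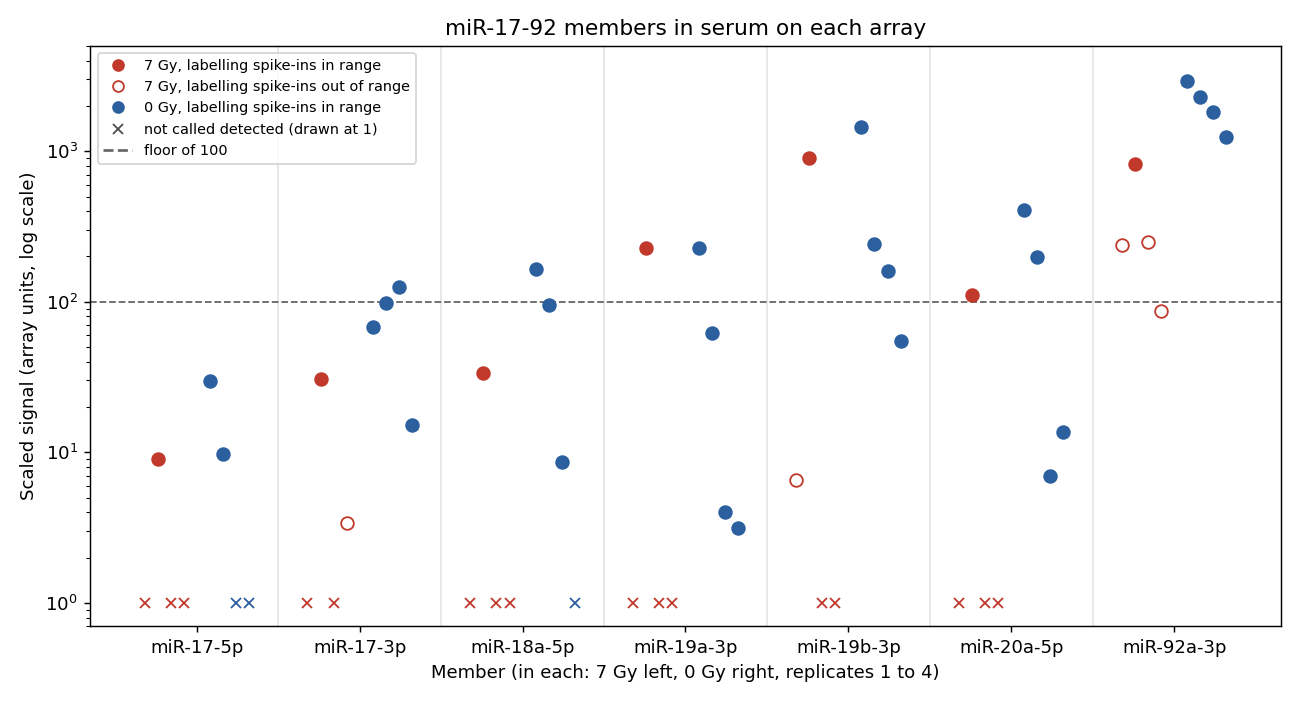
Scaled signal of each member on each array on a log axis in arbitrary units, 7 Gy left and 0 Gy right, with the floor of 100 drawn as a line. miR-92a-3p lies between 87.2 and 820 at 7 Gy and between 1243 and 2918 at 0 Gy, whereas most other members were not detected on 3 of the 4 irradiated arrays.

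The miR-19 family, known as the main oncogenic component of the cluster in mouse B-cell lymphoma, gave no called difference. miR-19b-3p had scaled signals of 6.53 and 898 on 7 Gy replicates 1 and 2 and was not detected on replicates 3 and 4. At 0 Gy its signals were 1447, 241, 161 and 54.7. The 898 of 7 Gy replicate 2 lay within the 0 Gy range, and the other 3 irradiated sera lay below it. The log2 difference of miR-19b-3p was −0.66 (SE 1.06, adjusted p = 0.677 by limma, exact permutation p = 0.543), with a spread at 0 Gy of 26.4-fold between the highest and the lowest serum. miR-19a-3p had 226 on 7 Gy replicate 2 and was not detected on the other irradiated arrays, against 229, 62.5, 4.02 and 3.13 at 0 Gy. A single serum in each group exceeded the floor. The log2 difference of miR-19a-3p was −0.0040 (SE 0.39, adjusted p = 0.999 by limma, exact permutation p = 1). The 2 probes of miR-19b-3p differed by 1.05 in their log2 difference, −1.52 for A_54_P1267 and −0.47 for A_54_P1268. The floor of 100 set the size of the differences, which were −2.93 (adjusted p = 0.282) with a floor of 10 and −4.75 (adjusted p = 0.157) with a floor of 1 for miR-19b-3p, and −0.66 and −2.41 for miR-19a-3p (adjusted p = 0.713 and 0.408, limma). The direction of both members depended on the scaling or the arrays used, with log2 differences with the labelling covariate of 1.49 for miR-19b-3p and 0.79 for miR-19a-3p.

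The seed AAAGUGC of the miR-17 family is known for repressing cell cycle inhibitors and E2F factors. Its members in the cluster, miR-17-5p and miR-20a-5p, were detected on 7 Gy replicate 2 but on no other irradiated array. miR-20a-5p had a scaled signal of 111 on 7 Gy replicate 2 and was not detected on 7 Gy replicates 1, 3 and 4, against 408, 200, 6.92 and 13.7 at 0 Gy. The groups overlapped, since 0 Gy replicates 3 and 4 lay below 7 Gy replicate 2. Its log2 difference was −0.72 (SE 0.45, adjusted p = 0.317 by limma, exact permutation p = 0.429), and it was −1.66 (adjusted p = 0.424) with a floor of 10 and −4.02 (adjusted p = 0.174) with a floor of 1. On 7 Gy replicate 2 and on 0 Gy replicates 1 and 2 all 30 of its spots were well above background. miR-17-5p had 9.0 on 7 Gy replicate 2, against 29.8 and 9.76 on 0 Gy replicates 1 and 2, and was not detected on the remaining arrays. All 30 of its spots were well above background on these 3 arrays, so that it was the floor of 100 and not detection that kept it from the test. With floors of 10 and 1 its log2 difference was −0.39 and −1.25 (adjusted p = 0.472 and 0.478, limma), with summed spot signals −0.083 and with normexp −0.36, and it was not called.

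miR-18a-5p, with the seed AAGGUGC, and miR-17-3p, the other arm of the first hairpin, also stayed mostly under the floor. miR-18a-5p had 33.8 on 7 Gy replicate 2 and no detection on the other irradiated arrays, against 165, 95.9 and 8.57 on 0 Gy replicates 1 to 3 and no detection on replicate 4. Its log2 difference was −0.18 (SE 0.18, adjusted p = 0.534 by limma), with 1 serum of 8 above the floor. miR-17-3p had 30.9 and 3.41 on 7 Gy replicates 2 and 4 and was not detected on replicates 1 and 3, against 68.3, 98.8, 124 and 15.1 at 0 Gy. Here the 0 Gy serum with the highest signal was replicate 3, which was not the highest for any other member. The log2 difference of miR-17-3p was −0.079 (SE 0.10, adjusted p = 0.617 by limma), again with 1 serum above the floor. As for the miR-19 family and miR-20a-5p, the floor sets the size of these differences: over the alternatives, which include lower floors, the log2 difference ran from −2.99 to −0.043 for miR-18a-5p and from −4.22 to −0.064 for miR-17-3p, and neither was called.

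Read against all miRNAs tested, no member was called higher or lower at an adjusted p under 0.05, where limma called 4 of 208 miRNAs lower (1.92%) and 4 higher. miR-92a-3p was the 1 of 6 members with an unadjusted p under 0.05, where 16 of 208 miRNAs (7.69%) were lower at that p. It was also the 1 of 6 whose groups did not overlap, where 11 of 208 miRNAs (5.29%) had all the irradiated sera below all the non-irradiated ones. The methods' t-test, unadjusted and with a 1.5-fold minimum, called 1 member lower, again miR-92a-3p, where it called 14 of 208 miRNAs lower (6.73%). All 6 members tested were below 0 in this processing (miR-19a-3p lay above 0 with quantile or spike-in scaling), with a median log2 difference of −0.42. Of all miRNAs tested, 84 of 208 (40.4%) were below 0 and the median was 0.17. For miR-17-3p and miR-18a-5p the sign was fixed by the filter. Each passed it only through a single 0 Gy serum above the floor. miR-19a-3p was at −0.0040, so that the count and the median are not read as a shared fall of the members.

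Ratios within an array do not depend on the scaling between arrays, and they were used to ask whether products of the same transcript kept their proportions. No pair of the 21 had both members detected on all 8 arrays, so that the ratio to miR-92a-3p is described only on arrays with both detected, and without a test. On 7 Gy replicate 2 the log2 ratio of miR-19a-3p to miR-92a-3p was −1.86, above the 0 Gy range of −8.83 to −3.67. The ratio of miR-19b-3p to miR-92a-3p was −5.20 on 7 Gy replicate 1, below the 0 Gy range of −4.50 to −1.01, and 0.13 on 7 Gy replicate 2, above it. On replicate 1 it rests on an unscaled miR-19b-3p signal of 1.51, with 0 of 30 spots well above background, so that its size and its place below the range cannot be relied on. On 7 Gy replicate 2, where all spots of both miR-19 members were well above background, their signals were higher relative to miR-92a-3p than on any 0 Gy array. For miR-20a-5p the ratio was −2.88 on 7 Gy replicate 2, within the 0 Gy range of −8.05 to −2.84. miR-18a-5p was at −4.60 on that array, within −7.74 to −4.15 at 0 Gy, and miR-17-3p was at −4.73 and −4.68 on 7 Gy replicates 2 and 4, within −6.36 to −3.88 at 0 Gy. miR-17-5p was at −6.51 on 7 Gy replicate 2, just above −7.88 and −6.61 on the 0 Gy arrays that detected it. The proportions were not constant among non-irradiated sera either, since the ratio to miR-92a-3p spread 11.3-fold for miR-19b-3p and 5.57-fold for miR-17-3p over the 0 Gy arrays. The lowest 0 Gy ratios of miR-18a-5p, miR-19a-3p and miR-20a-5p rest on arrays where at most 15 of 30 spots were well above background.

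**Figure D3:**
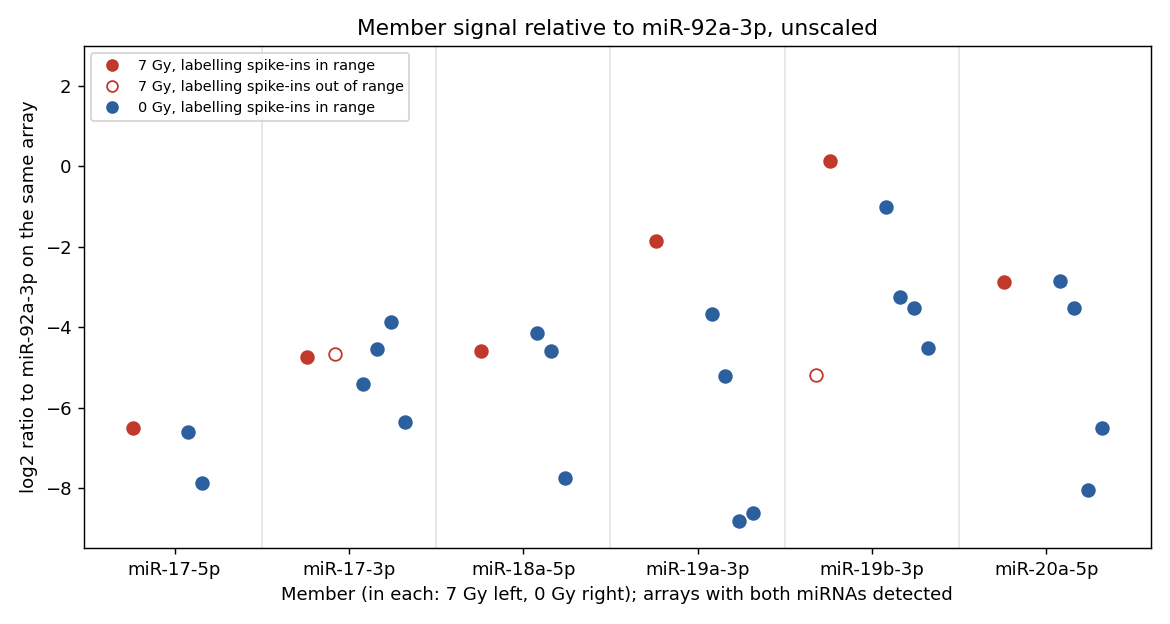
Log2 ratio of each member's unscaled signal to that of miR-92a-3p on the same array, 7 Gy left and 0 Gy right within each member, for arrays with both miRNAs detected. Open points are arrays with labelling spike-ins out of range, and the 7 Gy replicate 2 points of miR-19a-3p (−1.86) and miR-19b-3p (0.13) lie above all their 0 Gy points.

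With floored signals 15 pairs of members could be tested, and 3 had an exact permutation p of 0.0286, the log2 ratios of miR-92a-3p to miR-17-3p (−2.82), to miR-18a-5p (−2.72) and to miR-19a-3p (−2.90). The lowest adjusted p over the 15 pairs was 0.143. Since these partners lay mostly at the floor, the pairs largely repeat the difference of miR-92a-3p itself.

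The members also varied among the non-irradiated sera. Folds are given only for the 3 members with at least 29 of 30 spots well above background on every 0 Gy array: miR-92a-3p varied 2.35-fold, miR-17-3p 8.21-fold and miR-19b-3p 26.4-fold. miR-19a-3p had 7 of 30 spots well above background on each of 0 Gy replicates 3 and 4, and miR-20a-5p had 15 and 26 of 30 there, so that their low values lie near background. 0 Gy replicates 1 and 2, in slide row 1, gave the higher signals of miR-19a-3p, miR-19b-3p and miR-20a-5p, and 0 Gy replicates 3 and 4, in row 2, the lower ones. The part of the slide row in these levels was not tested.

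Over the whole array the difference between the groups went with base composition. Among 177 of the 208 tested miRNAs with a RefSeq sequence, Spearman's rho between the share of G and C and the log2 difference was 0.67, and 0.21 with the labelling signal in the model. This is a description across miRNAs that share the same 8 arrays, and it was made after the values were seen. The median log2 difference was −0.68 for the 34 miRNAs under 45% G and C, −0.15 for the 48 from 45% to under 55%, and 0.49 for the 95 at 55% or more. miR-18a-5p, miR-19a-3p, miR-19b-3p and miR-20a-5p fall in the lowest class. miR-19b-3p (−0.66) and miR-20a-5p (−0.72) lay close to its median, whereas miR-18a-5p (−0.18) and miR-19a-3p (−0.0040) lay nearer to 0. The floor set the size of these members' differences, so that their distance from the class median is not interpreted. miR-92a-3p, at 57.1%, falls in the highest class, where 11 of 95 miRNAs had a log2 difference below 0 and its own −2.90 was the lowest. It was not alone there, since miR-140-3p, also at 57.1%, had a log2 difference of −2.71.

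**Figure D4:**
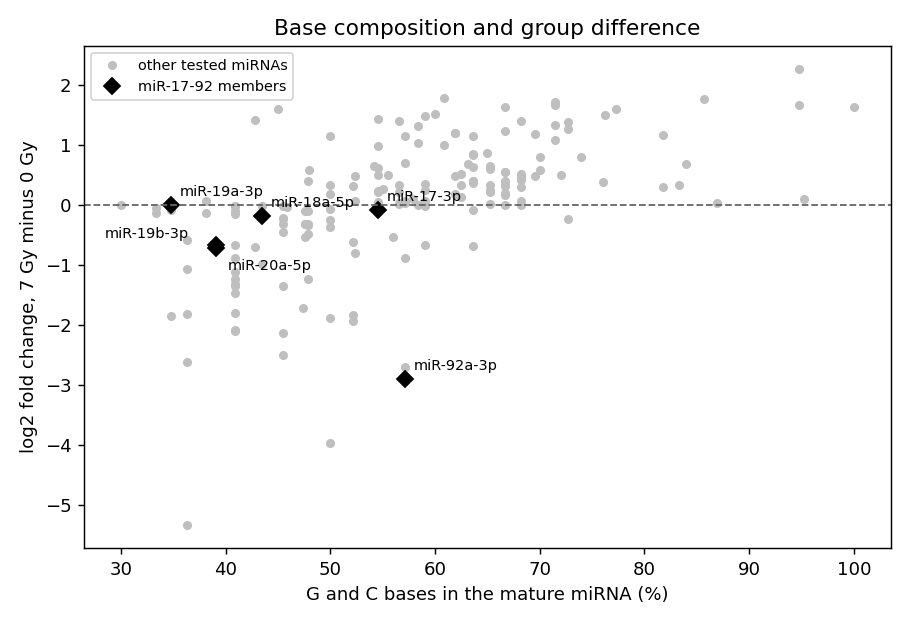
Log2 difference, 7 Gy minus 0 Gy, against the share of G and C in the mature sequence for the 177 tested miRNAs with a RefSeq sequence, with the members marked. miR-92a-3p at 57.1% lies at −2.90, below the class median of 0.49, and the other members lie nearer to 0.

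Relatives of the cluster were read in the same fit. Of the 5 other arms of the same hairpins on the array, only miR-18a-3p was detected on any, with 1.87 on 7 Gy replicate 2 against 12.3, 10.1, 1.42 and 4.69 at 0 Gy, and 0 were tested. The paralogous miR-106a-363 cluster, which lies on chromosome X and holds the second copies of miR-19b and miR-92a, had 9 of 10 miRNAs of its list on the array and 1 tested, miR-20b-5p, at −0.33 (adjusted p = 0.426, limma). miR-20b-5p had 61.0 on 7 Gy replicate 2 and no detection on the other irradiated arrays, against 217, 115, 2.91 and 4.34 at 0 Gy, the pattern of its seed partner miR-20a-5p. The miR-106b-25 cluster, embedded in the replication gene Mcm7, had 3 of 6 miRNAs tested and 1 called lower. Of the miRNAs with the seed AAAGUGC outside the cluster, 3 were tested and 0 were called by limma, 0 also at an unadjusted p under 0.05 and by the methods' t-test, with miR-93-5p at −1.93 (adjusted p = 0.223), miR-106b-5p at −0.70 (adjusted p = 0.677) and miR-20b-5p. Unlike miR-17-5p and miR-20a-5p, miR-106b-5p was detected on all 4 irradiated arrays. Its signals were 191, 781, 30.6 and 41.8 on 7 Gy replicates 1 to 4, against 2308, 95.4, 261 and 171 at 0 Gy.

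The called relative was miR-25-3p, the member of the miR-106b-25 cluster that shares the seed of miR-92a-3p. Its RefSeq sequence is shown for that shared seed, in capitals, and lies on the minus strand at chr5:138165332-138165353 of GRCm38.p6.
mmu-miR-25-3p: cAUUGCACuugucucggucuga

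miR-25-3p had scaled signals of 43.4, 969, 49.6 and 24.2 on 7 Gy replicates 1 to 4, against 4499, 3400, 2456 and 1515 at 0 Gy. With the floor in place of its values on 7 Gy replicates 1, 3 and 4, it fell by 3.96 on the log2 scale (adjusted p = 0.0474, limma), with groups that did not overlap. Its adjusted p ran from 7.4e-04 without 7 Gy replicate 2 to 0.776 over the alternatives, and leaving out any 1 of the other 7 arrays took it past 0.05 (0.0922 to 0.157). As for miR-92a-3p, 7 Gy replicate 2 was the highest irradiated serum and replicate 4 the lowest in scaled signal. The scale factors, the same for both miRNAs, were 4.33, 0.379, 4.63 and 0.756 on 7 Gy replicates 1 to 4, so that the shared order is not interpreted. Another miRNA with this seed, miR-92b-3p, was detected on all 8 arrays but stayed under the floor, with 19.3, 0.516, 20.4 and 5.23 at 7 Gy against 1.26, 0.628, 8.82 and 6.47 at 0 Gy, levels at which no difference was tested.

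The tested miRNAs whose log2 signals over the 8 arrays were nearest to those of miR-92a-3p, each centred on its own mean, were miR-140-3p, let-7b-5p and miR-25-3p, with root mean square differences of 0.35, 0.71 and 0.73. Their log2 differences were −2.71, −2.50 and −3.96, a direction that the choice by likeness over both groups fixes. For miR-20a-5p the nearest were miR-128-3p, miR-26a-5p and miR-652-3p (0.23, 0.26 and 0.27), and for miR-19b-3p they were miR-130a-3p, miR-27a-3p and miR-223-3p (0.59, 0.65 and 0.67). The nearest to miR-19a-3p were miR-192-5p, miR-497a-5p and miR-103-3p (0.27, 0.38 and 0.40). No other member of the cluster was a candidate in this ranking, which was limited to miRNAs outside it. For miR-18a-5p and miR-17-3p, at the floor on 7 of 8 arrays, likeness to other miRNAs mostly reflects the floor and is not listed.

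Markers of blood cells had log2 differences below 0 in all 9 of the tested miRNAs of their 3 lists, and limma called 0 of them. Among these, miR-142a-3p and miR-150-5p lay under the floor on every irradiated array. They passed the filter only through 0 Gy sera, which fixed their sign, so that the count is not read as a shared fall of the markers. Of all 208 miRNAs tested, 84 (40.4%) were below 0, and 16 (7.69%) were lower at an unadjusted limma p under 0.05. The methods' t-test called 14 of the 208 lower (6.73%). Among the 9, the erythroid miR-144-3p was at −0.0048, and its 105 on 7 Gy replicate 2 lay above its highest 0 Gy signal of 104. The 4 erythroid miRNAs were all tested, 1 of them, miR-451a, had an unadjusted p under 0.05 and passed the methods' t-test, and their summed scaled signal ran from 7322 to 25821 at 7 Gy and from 16446 to 80867 at 0 Gy. Of these, miR-451a, which is made in large amounts by red cells, had 83.5, 14871, 32.9 and 10.6 on 7 Gy replicates 1 to 4, against 67369, 39046, 2762 and 5570 at 0 Gy, and was detected throughout. The irradiated sums outside replicate 2 consist almost wholly of miR-486a-5p, also abundant in red cells, which had 12661, 2282, 25788 and 7312 on 7 Gy replicates 1 to 4, against 6501, 8009, 34551 and 10752 at 0 Gy (log2 difference −0.46, adjusted p = 0.705, limma), with groups that overlapped. The 3 myeloid and platelet miRNAs summed to between 7.02 and 705 at 7 Gy and between 201 and 1846 at 0 Gy, with miR-142a-3p at −1.86 (adjusted p = 0.0601, limma), the 1 of 3 that passed the methods' t-test. The lymphocyte miRNAs, of which 2 of 3 were tested and 0 passed either test without adjustment, summed to between 107 and 470 at 7 Gy and between 166 and 522 at 0 Gy. In each list the ranges of the summed signals overlapped. Among the tested markers only the groups of miR-142a-3p did not overlap, as for 11 of all 208 miRNAs tested (5.29%). miR-142a-3p had 91.5 on 7 Gy replicate 2 and no detection on the other irradiated arrays, against 366, 887, 168 and 315 at 0 Gy. The defining lymphocyte miRNA miR-150-5p was detected on 1 of 4 irradiated arrays, replicate 2. The liver miRNA miR-122-5p followed the miR-19a-3p pattern, with 806 on 7 Gy replicate 2 and no detection on the other irradiated arrays, against 179, 442, 5.26 and 95.2 at 0 Gy. The part of these cells in the difference of miR-92a-3p was not tested.

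**Figure D5:**
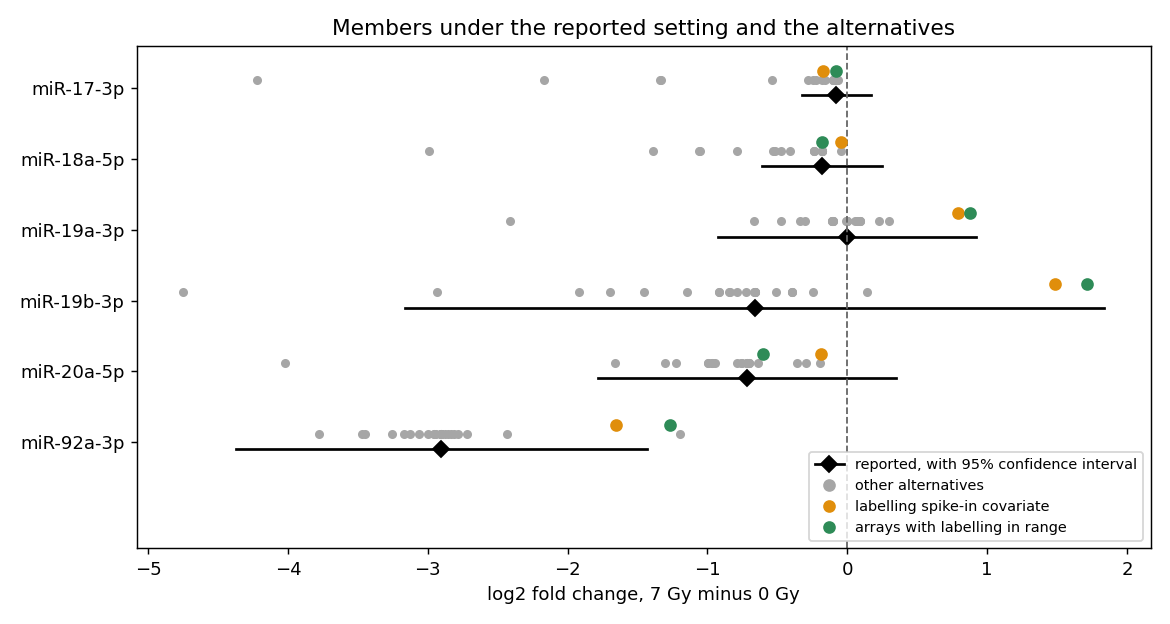
Log2 difference, 7 Gy minus 0 Gy, of each tested member under the processing alternatives, 1 point per alternative. miR-92a-3p stays between −3.78 and −1.19, whereas the points of miR-19a-3p and miR-19b-3p lie on both sides of 0.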

How the data were processed

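The deposited intensity values were made by the authors with Agilent Feature Extraction (10.7 in the methods, 11.5 in the submitters' processing notes), which subtracted the background, summed the signals of a miRNA's 2 probes and wrote 0.1 where it was not detected, with no normalization between arrays. The detection, saturation and background flags (other columns) and the spot signals come from the same deposited output. No spot was saturated. Precision is limited by there being 8 arrays.

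From these, each array was scaled to the geometric mean 90th percentile over 1881 miRNAs, signals below 100 were replaced by 100 and converted to log2. Whether the methods' limit of 100 is a floor or a filter is not stated. Groups were compared with limma 3.58.1 in R 4.3.3 and Benjamini-Hochberg adjustment over 208 miRNAs, without covariates, and single values with exact permutation tests over 70 arrangements. Spots of a probe were averaged. The fit was tested on simulated data. Replicate numbers are not known to pair the sera. The deviations of arrays with the same number had correlations of −0.337, 0.433, 0.553 and 0.419, with the own partner the best match for number 3 only. With so few arrays this cannot exclude pairing. The planned ratio test had 0 eligible pairs and was replaced by a description and the floored alternative. Figures were drawn with matplotlib 3.10.9.

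All 7 members were named. Relatives, markers, the 3 nearest miRNAs and the alternatives were listed by rule, and members and lists were chosen with earlier results of these data known.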

Additional observations from a re-analysis of the deposited data

Results flagged for a closer look

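In 6 of the 10 groups of 4 arrays in which a member's floored signal varied, 1 array stood apart from the other 3, all of which lay at the floor. Chance flags about 1 in 20 groups, and with 3 of 4 arrays at the floor any array above it stands apart by construction. In irradiated sera this was 7 Gy replicate 2 each time, with scaled signals of 898 for miR-19b-3p, 226 for miR-19a-3p and 111 for miR-20a-5p. In non-irradiated sera it was 0 Gy replicate 1 for miR-19a-3p (229) and miR-18a-5p (165), and 0 Gy replicate 3 for miR-17-3p (124).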

How the results depend on the processing

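Calls by limma at an adjusted p under 0.05 are given as higher and lower of all miRNAs tested, against 4 and 4 in the chosen processing, in which 0 members were called. There were 0 and 0 calls with no scaling, with hybridization or labelling spike-in scaling, with an intensity trend, with the replicate block and with the labelling covariate. The counts were 7 and 11 with the 75th percentile of detected miRNAs, 9 and 19 with a floor of 10, 19 and 15 with summed spot signals, 61 and 14 with array weights and 18 and 8 with slide row as a block. The methods' t-test, unadjusted with a 1.5-fold minimum and so not of the same form, gave 34 and 14. In each of these 6 settings, and with detection required on all 8 arrays, 1 member was called lower, miR-92a-3p. The 90th percentile of detected miRNAs gave 6 and 1, quantile normalization 2 and 4, a floor of 1 gave 2 and 6, normexp 6 and 12, and the methods' t-test after adjustment 1 and 1. Keeping only arrays whose labelling was in range, a choice made after seeing the data that assumes the lone 7 Gy serum to vary like the others, gave 1 and 0. Leaving out 1 array gave 0 to 56 higher, 1 to 14 lower and 0 to 1 members lower, the highest of each without 7 Gy replicate 2. miR-92a-3p had an adjusted p of 0.0495 with the 75th percentile, 0.0797 with the replicate block, whose numbers are not known to pair the sera, and 0.0823 to 0.157 without any 1 of the other 7 arrays.

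The log2 difference of miR-19a-3p turned to 0.055 with quantile normalization, 0.23 with labelling and 0.072 with hybridization spike-in scaling, 0.79 with the labelling covariate and 0.88 with the arrays in range, and leaving out 1 array gave −0.30 to 0.29, turning it without 0 Gy replicate 1 and without 7 Gy replicates 1, 3 or 4 (0.094 each). That of miR-19b-3p turned to 1.49 with the covariate and 1.72 with the arrays in range, and leaving out 1 array gave −1.45 to 0.14, turning it without 0 Gy replicate 1. The causes were not tested. The median log2 difference of all miRNAs tested moved by −0.27 with no scaling, −0.29 and −0.24 with the 75th and 90th percentiles of detected miRNAs, −0.11 with quantile normalization and 0.33 with labelling scaling, and relative to that median miR-92a-3p lay between −3.68 and −1.69 in these settings. The other 4 members tested kept their direction. For miR-17-3p and miR-18a-5p, at the floor on every irradiated array, the direction could hardly turn while the floor of 100 was kept. Each also left the fit when its 0 Gy serum above the floor was left out. Ratios from summed spots were not run for pairs with sums at or below 0.

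Low labelling on 3 of 4 irradiated arrays limits every member, miR-92a-3p included, which was at −1.19 (adjusted p = 0.495) with labelling scaling, and all but miR-92a-3p lay under the floor on at least 3 of the 4 irradiated arrays.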
